A study of Mus musculus with 5 samples.

Results

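The p53 pathway and mitochondrial apoptosis were described by 9 genes in cultured mouse neural stem/progenitor cells (NSPCs): *Trp53*, *Mdm2*, *Bax*, *Bbc3*, *Ccng1*, *Bcl2*, *Bcl2l1*, *Mcl1* and *Casp9*. They were chosen by symbol, and all 9 are listed in the deposited table, with 15 of its 22227 transcripts and 9 of its 12588 gene sums. RNA-Seq covered 5 libraries of untreated cultures kept proliferating with the growth factors FGF-2 (20 ng/ml) and EGF (20 ng/ml), all on the C57BL/6J strain. Replicates 1 and 4 carry the genotype label p75NTR+/+ and are called WT, and replicates 1, 2 and 4 carry the label p75NTR-/-, a constitutive loss, in all cells of the animal, of the p75 neurotrophin receptor. WT cells came from littermates. The labels give E12.5 embryos as the source of all cells, whereas the study's methods describe adult subventricular zone NSPCs, and the table does not decide between them. The study describes its RNA-Seq replicates as independent preparations, and replicates other than these 5 libraries were not analysed here. Nothing in the labels says which cultures share a litter or day, so p-values measure the spread between these libraries, which may in part be technical.

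p53, encoded by *Trp53*, is a transcription factor that is kept low by the ubiquitin ligase Mdm2 and becomes stable after DNA damage and other stress. Among its target genes are *Mdm2* itself, *Ccng1*, *Bax* and *Bbc3*. Bax permeabilizes the outer mitochondrial membrane, Bbc3 (Puma) is a BH3-only activator of that step, and Bcl2, Bcl-x (from *Bcl2l1*) and Mcl1 hold it back. Cytochrome c released from mitochondria then activates caspase-9. p75NTR belongs to the same receptor superfamily as Fas and the TNF receptors and has an intracellular death domain, and neural progenitors are among the cells in which p53 controls growth and survival.

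The promoters were searched because *Ccng1*, *Mdm2*, *Bax* and *Bbc3* are p53 targets. RefSeq promoter windows on GRCm38.p6, from 250 bases before to 50 bases after each start, were found for all 9 genes, 13 windows in all. They were searched for the p53 half-site consensus, and for a full site of 2 adjoining half-sites. Below are stretches of the 4 windows with a half-site that matches the consensus at every base, set in capitals. The central 20 bases are the best match to a full site in the window, and 10 bases of flank are given on each side.
*Ccng1* promoter: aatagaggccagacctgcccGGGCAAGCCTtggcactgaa
*Bax* promoter: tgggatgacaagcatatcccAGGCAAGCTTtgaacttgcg
*Trp53* promoter: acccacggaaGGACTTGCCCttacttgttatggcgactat
*Mdm2* promoter: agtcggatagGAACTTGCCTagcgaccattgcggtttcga
The central bases lie at chr11:40755462-40755481 (minus strand), chr7:45467090-45467109 (minus strand), chr11:69580284-69580303 (plus strand) and chr10:117710925-117710944 (minus strand). The half-site reads the same on both strands, so 1 search covers both. An exact half-site was present in these 4 of the 13 windows, and in 8.36% of all 32851 windows in the RefSeq table. The *Ccng1* stretch differed from the full consensus at 1 base, and 29 windows of the table held a full site with at most 1 mismatch. The *Bax* and *Trp53* stretches each had 3 mismatches, as did the best stretch of 1 *Bbc3* window, which held no exact half-site, and the *Mdm2* stretch had 5. At most 3 mismatches were found in 6.29% of all windows. The windows of *Bbc3*, *Bcl2*, *Bcl2l1*, *Mcl1* and *Casp9* held no exact half-site. A match is a description of the letters only, and sites outside the window were not searched.

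The values are normalized counts, that is, counts of a transcript scaled by the size factor that DESeq2 gave the library, and the gene sum adds all listed transcripts of a symbol. Total counts were 14452396 and 13982065 in the WT libraries and 11688211 to 14422358 in the p75NTR-/- libraries. *Ngfr*, the gene of p75NTR (chromosome 11 of GRCm38 from 95568818 to 95587735), goes against the labels. It had 0.98 and 2.08 normalized counts in WT replicates 1 and 4, and 9.89, 141 and 251 in p75NTR-/- replicates 1, 2 and 4. The study names an established null line, which as background removes exon III of the gene and leaves other exons that can still be transcribed, so reads of *Ngfr* in these libraries are not a check of the deletion by themselves. The near absence of *Ngfr* from the WT libraries remains against their label. The groups are therefore named by their labels, and each direction is one between libraries labelled WT and libraries labelled p75NTR-/-. A principal component analysis of 10786 gene sums with a mean of at least 50 set both libraries numbered 4 apart from the other 3 on component 1, with 51.6% of the variance, and WT replicate 1 apart on component 2, with 36.5%. All 11 neural progenitor markers were listed, among them *Nes*, *Sox2* and *Pax6*, whereas 0 of 7 microglial and endothelial markers were. A gene can be missing from the table without being low in these cells, since *Cycs*, a cytochrome c gene, was not listed either. Of 9 neuronal markers, 4 were listed, with sums of 669 to 989 TPM (transcript abundance scaled by the authors for length and depth), mostly from *Map2*, and *Dcx*, *Rbfox3*, *Stmn2*, *Syt1* and *Slc17a6* were not. Of 7 oligodendrocyte lineage markers, 5 were listed, without *Sox10* and *Mbp*, and their sums were 752 and 364 TPM in WT replicates 1 and 4 and 632, 946 and 346 TPM in p75NTR-/- replicates 1, 2 and 4, lowest in both libraries numbered 4. The 6 astrocyte markers summed to 1402 and 868 TPM in WT replicates 1 and 4 and to 634, 675 and 911 TPM in p75NTR-/- replicates 1, 2 and 4. All 6 had a log2 fold change (p75NTR-/- minus WT) below 0, with a median of -0.84 (lowest adjusted p = 0.934, limma). The labels did not overlap for 2 of the 6, both lower in the p75NTR-/- libraries, 33.3% beside 15.0% of all gene sums. The part of these markers in the results below was not tested.

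Fewer cells that express a gene and less RNA per cell cannot be told apart in such bulk libraries. The order of the 9 genes was read from TPM, summed over listed transcripts. *Bax* had the highest level in each library, with a lowest value of 349, a median of 374 and a highest value of 436 TPM. *Ccng1*, an atypical cyclin gene, followed with 208, 258 and 281 TPM, and *Mcl1* with 70.6, 112 and 149 TPM. The ranges of these first 3 genes did not overlap with each other, nor did that of *Mcl1* with the next gene. Bax-202, a form annotated without its 3′ end, made up 18.5% to 22.2% of the *Bax* TPM. The gap between *Bax* and *Ccng1* rests in part on it, and the ranges overlap for Bax-201 alone. *Bcl2l1* ranged from 35.3 to 69.3 TPM around a median of 61.9. *Trp53* (30.8 to 43.0 TPM, median 39.9) and *Mdm2* (26.0 to 52.3 TPM, median 38.0) could not be ordered, since *Trp53* was above *Mdm2* in 3 of 5 libraries. *Bcl2l1* exceeded *Trp53* in each of the 5 libraries, although the ranges overlap. Bcl2l1-208, a fragment annotated without its 3′ end, made up 17.0% to 32.7% of the *Bcl2l1* TPM. The order against *Trp53* therefore rests in part on this less certain form, and it does not hold in every library for Bcl2l1-201 alone.

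The last 3 genes were lower. *Bbc3* had 7.33 to 24.4 TPM around a median of 19.1, *Casp9* 6.64 to 13.4 TPM around 7.20 and *Bcl2* 3.27 to 6.73 TPM around 3.89. Neighbours in this part of the order overlapped in range, but *Bbc3* was above *Casp9* and *Casp9* above *Bcl2* in each library. By mean TPM, *Bax* stood above 96.7% of all gene sums and *Bcl2* above 24.3%. Among the genes that restrain Bax, the TPM order was thus *Mcl1*, *Bcl2l1* and *Bcl2*, and *Mcl1* was 1.70 to 2.18 times as high as *Bcl2l1* in every library.

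**Figure D1:**
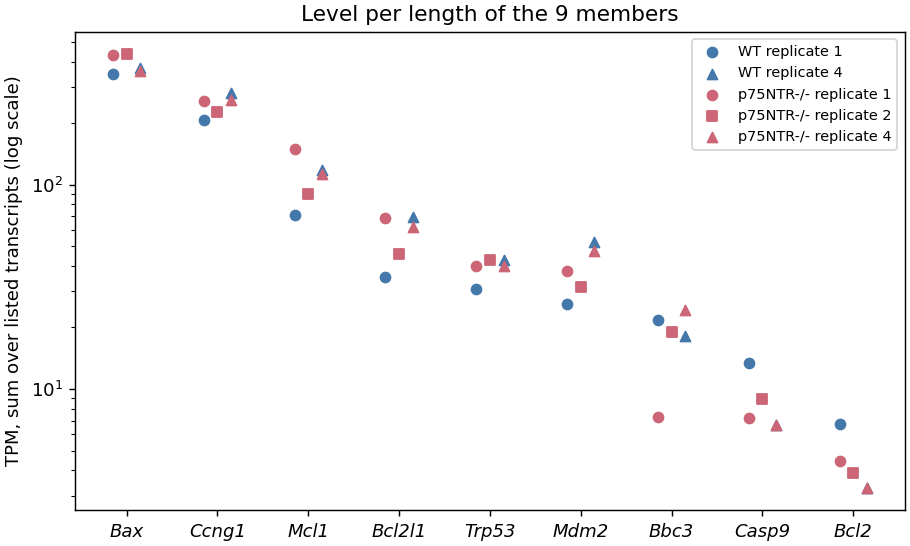
Level of the 9 genes as TPM summed over listed transcripts (vertical axis, log scale), with 1 point per library, colored by label and shaped by replicate number. *Bax* lies highest at 349 to 436 TPM and *Bcl2* lowest at 3.27 to 6.73 TPM, and for *Casp9* and *Bcl2* the points of both libraries numbered 4 coincide.

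Between the labels, none of the 9 gene sums differed beyond the spread between libraries. limma on log2(normalized count + 1) called 0 of the 9 with the study's criteria, an adjusted p under 0.05, a fold of at least 1.5 and a mean of at least 50. It called 0.00794% of all gene sums, which is 1 gene outside the p53 pathway (*Gm15446*). At an unadjusted p under 0.05, 0 of the 9 and 2.08% of all gene sums were found. The values of the labels overlapped for all 9, while 15.0% of all gene sums did not overlap (7.52% higher and 7.53% lower in the p75NTR-/- libraries). The difference was above 0 for 6 of the 9 and for 50.7% of all gene sums. The 95% intervals of the log2 differences were wide, so a change of 1.5-fold in at least 1 direction was within the interval for 7 of the 9 genes, all but *Bax* and *Ccng1*.

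**Figure D2:**
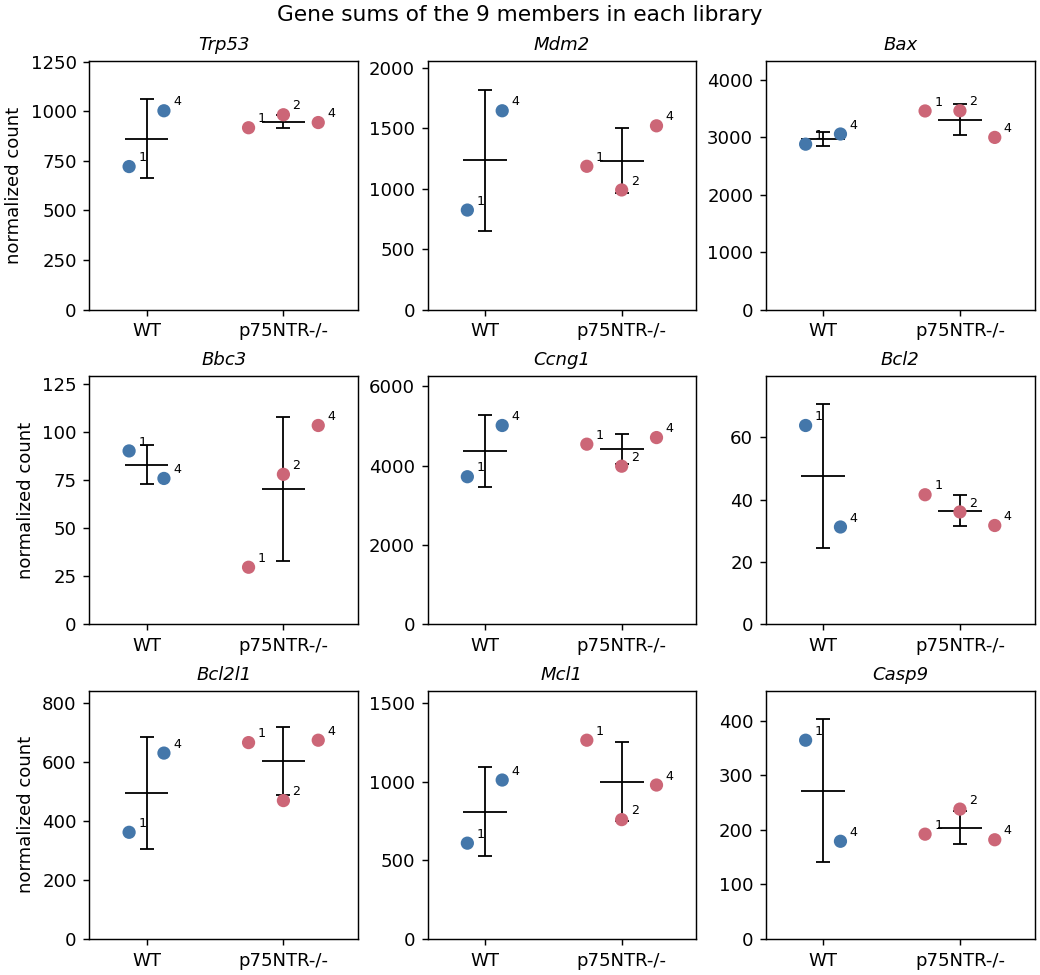
Gene sums of the 9 genes in normalized counts (vertical axes from 0), with 1 point per library, numbered by replicate, and the mean and SD of each label as bars (n = 2 for WT, n = 3 for p75NTR-/-). The labels overlap in every panel, and WT replicate 1 is the lowest or highest library in 8 of the 9.

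*Trp53* lies on chromosome 11 from 69580359 to 69591873 on the plus strand, and 2 of its 6 annotated transcripts are listed. Its gene sum was 721 and 1003 normalized counts in WT replicates 1 and 4, and 917, 983 and 943 in p75NTR-/- replicates 1, 2 and 4. Both the lowest and the highest library were labelled WT, with the 3 p75NTR-/- libraries between them. The means were 862 ± 199 (SD, n = 2) and 948 ± 33.0 (SD, n = 3), a log2 fold change of 0.16 with a 95% interval from -0.37 to 0.68 (adjusted p = 0.934, limma).

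*Mdm2*, the main negative regulator of p53 and itself a p53 target, lies on chromosome 10 from 117688875 to 117710758 on the minus strand. Its gene sum was 822 and 1644 normalized counts in the WT libraries, and 1184, 989 and 1519 in the p75NTR-/- libraries. Here too the extremes were the 2 WT libraries, which differed from each other by a factor of 2.00. Both libraries numbered 4 were above the other 3, irrespective of label. The means of 1233 ± 581 (SD, n = 2) and 1231 ± 268 (SD, n = 3) gave a log2 fold change of 0.06 (95% interval -0.89 to 1.01, adjusted p = 0.986, limma). The TPM ratio of *Mdm2* to *Trp53* was 0.846 and 1.218 in the WT libraries and 0.955, 0.739 and 1.18 in the p75NTR-/- libraries. The labels overlapped in this ratio (exact permutation test, two-sided, p = 0.7, where 0.1 is the smallest p that 2 against 3 libraries allow, so this test could not have shown a difference).

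*Ccng1* encodes cyclin G1, which is induced by p53 and takes part in feedback on Mdm2. It lies on chromosome 11 from 40748552 to 40755311 on the minus strand, with 1 listed transcript. It had 3718 and 5010 normalized counts in the WT libraries and 4539, 3984 and 4705 in the p75NTR-/- libraries. As for *Mdm2*, WT replicate 1 was lowest, WT replicate 4 highest, and both libraries numbered 4 were above the rest. The difference between labels was the smallest of the 9 on the log2 scale, 0.03 with a 95% interval from -0.50 to 0.56 (adjusted p = 0.989, limma).

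*Bax* lies on chromosome 7 from 45461697 to 45466898 on the minus strand, and 3 of its 6 annotated transcripts are listed. Its gene sum was 2876 and 3053 normalized counts in the WT libraries and 3454, 3458 and 2994 in the p75NTR-/- libraries. The p75NTR-/- replicates 1 and 2 were above both WT libraries, while replicate 4 lay between them. The means of 2965 ± 125 (SD, n = 2) and 3302 ± 267 (SD, n = 3) gave a log2 fold change of 0.15 (95% interval -0.27 to 0.58, adjusted p = 0.934, limma). Across all 5 libraries *Bax* varied least of the 9 genes, by 0.27 on the log2 scale from the lowest to the highest library, and 10.5% of gene sums with a mean of at least 50 varied less.

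*Bbc3* encodes Puma and lies on chromosome 7 from 16308393 to 16318205 on the plus strand. Its single listed transcript had 90.3 and 75.9 normalized counts in the WT libraries and 29.7, 78.1 and 104 in the p75NTR-/- libraries. One library decided the direction, since p75NTR-/- replicate 1 was far below the other 4 while p75NTR-/- replicate 4 was above all others. The log2 fold change of -0.40 (95% interval -1.83 to 1.02, adjusted p = 0.934, limma) became 0.12 without p75NTR-/- replicate 1. *Bbc3* had the widest range of the 9 genes, 1.77 on the log2 scale, and 94.5% of gene sums with a mean of at least 50 varied less.

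The 3 genes that restrain Bax differed in direction. *Bcl2l1* (chromosome 2 from 152780668 to 152831728) had gene sums of 361 and 629 normalized counts in the WT libraries and 665, 469 and 673 in the p75NTR-/- libraries. *Mcl1*, whose protein turns over rapidly (chromosome 3 from 95658788 to 95663176), had 609 and 1011 normalized counts in the WT libraries and 1265, 759 and 979 in the p75NTR-/- libraries. For both genes WT replicate 1 was lowest, p75NTR-/- replicate 2 was next, and WT replicate 4 lay among the remaining libraries. The log2 fold changes were 0.32 for *Bcl2l1* (95% interval -0.51 to 1.14) and 0.32 for *Mcl1* (95% interval -0.53 to 1.17), each with an adjusted p of 0.934 from limma.

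*Bcl2* (chromosome 1 from 106538178 to 106714274) ran the other way. It had 63.8 and 31.2 normalized counts in the WT libraries and 41.6, 36.04 and 31.7 in the p75NTR-/- libraries, so that WT replicate 1 was the highest and WT replicate 4 the lowest library. Its mean of 40.9 normalized counts over the 5 libraries was under the minimum of 50, so it could not be called. Its log2 fold change was -0.30 (95% interval -1.18 to 0.58, adjusted p = 0.934, limma). The summed TPM of *Bcl2*, *Bcl2l1* and *Mcl1* was 0.322 and 0.509 of the *Bax* TPM in the WT libraries and 0.513, 0.321 and 0.495 in the p75NTR-/- libraries. WT replicate 1 and p75NTR-/- replicate 2 thus shared a low ratio and the other 3 libraries a higher one, and the labels overlapped (exact permutation test, two-sided, p = 0.8, smallest possible p 0.1). Forms annotated without their 3′ end enter both sides of this ratio. Bcl2l1-208 made up 17.0% to 32.7% of the *Bcl2l1* TPM, and Bax-202 made up 18.5% to 22.2% of the *Bax* TPM.

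*Casp9*, the initiator caspase of the mitochondrial pathway, lies on chromosome 4 from 141793612 to 141815976 on the plus strand. Its listed transcript had 364 and 179 normalized counts in the WT libraries and 192, 238 and 182 in the p75NTR-/- libraries. WT replicate 1 was again apart, above all others, and both libraries numbered 4 were below the other 3. The log2 fold change was -0.33 (95% interval -1.23 to 0.56, adjusted p = 0.934, limma).

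WT replicate 1 was the lowest of the 5 libraries for *Trp53*, *Mdm2*, *Bax*, *Ccng1*, *Bcl2l1* and *Mcl1* and the highest for *Bcl2* and *Casp9*. It was thus an extreme for 8 of the 9 genes, compared with 59.3% of all gene sums. Without this library, the sign of the difference turned for 7 of the 9 genes, to -0.08 for *Trp53*, -0.44 for *Mdm2*, -0.19 for *Ccng1*, -0.08 for *Bcl2l1*, -0.05 for *Mcl1*, 0.21 for *Bcl2* and 0.18 for *Casp9* on the log2 scale. The sign turned for 29.4% of all gene sums. Only *Bax*, at 0.11, and *Bbc3*, at -0.28, kept it under that omission.

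Libraries with the same number were compared as well, although the labels do not say what they share. Within number 1, the p75NTR-/- library exceeded the WT library by 1.05 on the log2 scale for *Mcl1*, 0.88 for *Bcl2l1* and 0.53 for *Mdm2*, and was lower by -0.92 for *Casp9* and -1.57 for *Bbc3*. Within number 4, the absolute log2 difference was under 0.12 for 8 of the 9 genes, with *Bbc3* the exception at 0.44, and for 54.1% of all gene sums. The cutoff of 0.12 lies just above the largest of these 8 in size, -0.11 for *Mdm2*. It follows the values of the 9 genes, so their count cannot be weighed against the 54.1%. The absolute difference was larger within number 1 than within number 4 for all 9 genes, as for 79.1% of all gene sums.

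**Figure D3:**
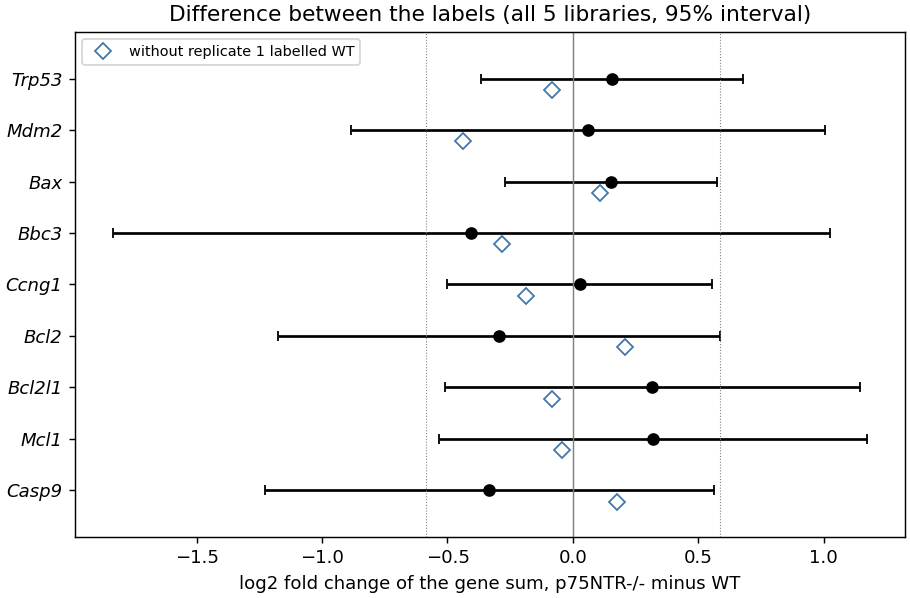
Log2 fold change of each gene sum between the labels (horizontal axis, p75NTR-/- minus WT), with the limma estimate from all 5 libraries and its 95% interval in black, and the estimate without WT replicate 1 as open diamonds. Dotted lines mark a 1.5-fold change. Each interval contains 0, and 7 of the 9 diamonds lie on the other side of 0.

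Transcripts were compared next, since gene sums can hide a change of isoform. Of the 15 listed transcripts, limma called 0, and 0.0135% of all listed transcripts. Without the minimum of the mean it again called 0 of the 15, and 0.139% of all. In simulated data it called 0 of 50 transcripts changed 2-fold, so the lack of calls does not speak to changes of that size. The labels did not overlap for 2 of the 15, 1 higher and 1 lower in the p75NTR-/- libraries, while 16.6% of all transcripts did not overlap (8.94% higher and 7.61% lower). The difference was above 0 for 9 of the 15 and for 51.0% of all transcripts. At an unadjusted p under 0.05, 0 of the 15 and 3.14% of all transcripts were found. Both transcripts without overlap were minor forms of their gene.

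Trp53-206 (ENSMUST00000171247) is a form of *Trp53* with an added stretch of 96 exonic bases that the other listed transcript, Trp53-203, lacks and that other annotated *Trp53* transcripts share. Of these bases, 52 are coding, at chr11:69591254-69591305 on the plus strand, and they are shown because they set this form apart.
Trp53-206 coding stretch: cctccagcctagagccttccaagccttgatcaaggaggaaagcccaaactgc
Trp53-206 had 36.3 and 35.4 normalized counts in the WT libraries and 74.2, 125 and 46.5 in the p75NTR-/- libraries. Each p75NTR-/- library was above both WT libraries, although replicate 4 exceeded them by little. The log2 fold change was 1.06 (95% interval -0.20 to 2.32, adjusted p = 0.962, limma), and 0.38 within number 4. As a share of the *Trp53* gene sum the form made up 5.03% and 3.53% in the WT libraries and 8.09%, 12.7% and 4.93% in the p75NTR-/- libraries, and these shares overlapped (exact permutation test, two-sided, p = 0.3, smallest possible p 0.1). Trp53-203, which holds the rest, had a log2 fold change of 0.09 (adjusted p = 0.975, limma).

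Mdm2-202 (ENSMUST00000105263) has the same 12 exons in number as Mdm2-201 and 46 bases found in no other annotated *Mdm2* transcript, none of them coding. It had 52.99 and 122 normalized counts in the WT libraries and 43.5, 0 and 0 in the p75NTR-/- libraries. In the last 2 libraries a count of 0 allows up to 3.604 and 3.17 normalized counts, which is the limit of 3 counts and covers counting error only. The p75NTR-/- replicate 1 was close to WT replicate 1, so the labels were separated by little within number 1. The log2 fold change of -4.52 (95% interval -9.88 to 0.84, adjusted p = 0.962, limma) depends on the pseudocount and is not a measure of size. The form made up 6.44% and 7.41% of the *Mdm2* gene sum in the WT libraries and 3.68%, 0% and 0% in the others (exact permutation test, two-sided, p = 0.2, smallest possible p 0.1). Mdm2-201 held the remainder, with a log2 fold change of 0.15 (adjusted p = 0.976, limma).

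**Figure D4:**
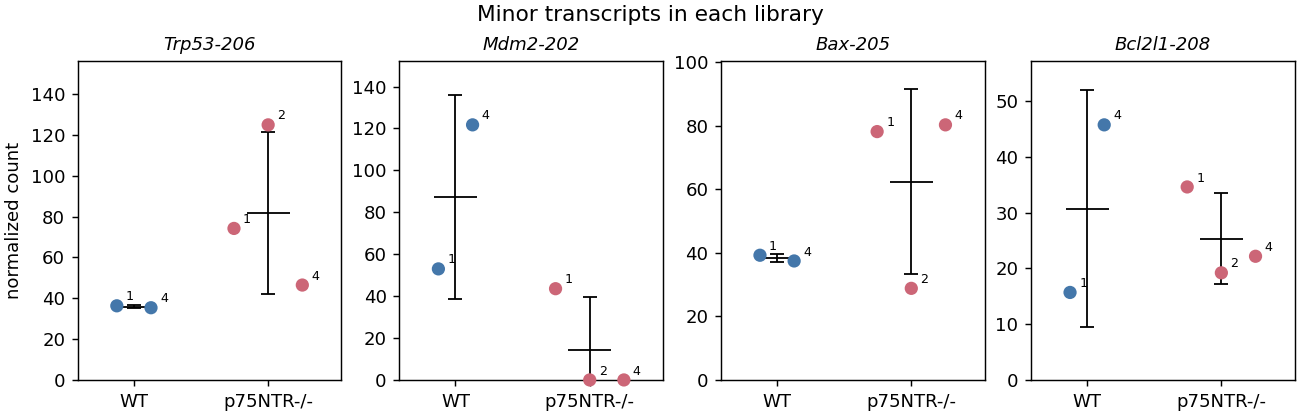
Normalized counts of 4 minor transcripts (vertical axes from 0), with 1 point per library, numbered by replicate, and the mean and SD of each label as bars (n = 2 for WT, n = 3 for p75NTR-/-). The labels do not overlap for Trp53-206 and Mdm2-202 and overlap for Bax-205 and Bcl2l1-208.

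*Bax* was read mainly from Bax-201, which made up 87.1% to 89.0% of the gene sum. Bax-202 (ENSMUST00000210019) is annotated without its 3′ end and carries 35 coding bases at chr7:45466272-45466306, on the minus strand, that no other listed *Bax* transcript has.
Bax-202 coding stretch: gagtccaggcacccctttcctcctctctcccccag
It held 9.0% to 11.0% of the *Bax* gene sum, with 277 and 306 normalized counts in the WT libraries and 368, 381 and 269 in the p75NTR-/- libraries. Bax-205, which has no exonic base of its own among the listed forms, had 39.2 and 37.5 normalized counts against 78.2, 28.8 and 80.3. Its log2 fold change of 0.55 (adjusted p = 0.962, limma) was 0.98 within number 1 and 1.08 within number 4, but p75NTR-/- replicate 2 was the lowest of all libraries. For *Bcl2l1*, Bcl2l1-201 made up 92.7% to 96.7% of the gene sum, and the fragment Bcl2l1-208, also annotated without its 3′ end, had 15.7 and 45.8 normalized counts in the WT libraries and 34.6, 19.2 and 22.2 in the p75NTR-/- libraries. Mcl1-202 had 3 counts in WT replicate 4 and 0 elsewhere. Bax-205 and Mcl1-202 have no base, and Bcl2l1-208 has 18 bases, outside the other listed forms of their gene. The authors' quantification assigns reads to such minor forms by estimate, so their values are less certain than the gene sum.

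Genes that act with the 9 were read from lists of known components, which also hold the 9 themselves, so medians and shares include them. Of 36 p53 targets, all were listed, 0 were called, 18 were higher and 18 lower in the p75NTR-/- libraries, and the median log2 fold change was 0.01, beside 0.00 for all gene sums. *Plk2*, a kinase gene induced by p53, and *Ddit4*, an inhibitor of mTORC1, had the largest differences among those with a mean of at least 50. *Plk2* had 725 and 1426 normalized counts in the WT libraries and 3337, 2075 and 1396 in the p75NTR-/- libraries (log2 fold change 1.07, standard error 0.48, adjusted p = 0.934, limma), and the log2 fold change was 0.58 without WT replicate 1. *Ddit4* had 3572 and 3531 against 608, 1855 and 4241 (log2 fold change -1.08, standard error 0.82, adjusted p = 0.934, limma), so that p75NTR-/- replicate 4 was above both WT libraries. Without p75NTR-/- replicate 1 it was -0.34, and without replicate 4 -1.74. The labels did not overlap for 4 of the 36, *Sac3d1* higher and *Sesn2*, *Rrm2b* and *Dcxr* lower, 11.1% of the list beside 15.0% of all gene sums.

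*Cdkn1a*, the gene of the cell cycle inhibitor p21, was chosen after its values were seen, as the best known p53 target. It had 1924 and 3201 normalized counts in the WT libraries and 2529, 2308 and 3592 in the p75NTR-/- libraries, with both libraries numbered 4 above the rest, as for *Mdm2* and *Ccng1*. This order held for 12 of the 36 p53 targets and for 23.3% of all gene sums. WT replicate 1 was the lowest library for 19 of the 36, beside 31.2% of all gene sums. Both counts include *Mdm2*, *Ccng1* and *Cdkn1a*, so they are not independent of the genes in which the patterns were seen. The median log2 fold change of the list was -0.17 without WT replicate 1 and 0.22 without WT replicate 4.

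Of 20 genes of the p53 family and its regulators, *Trp53* and *Mdm2* included, 18 were listed, without *Trp63* and *Trp73*, and 0 were called. The median log2 fold change was 0.07. *Chek1*, a checkpoint kinase gene, had 101.08 and 287 normalized counts in the WT libraries and 346, 347 and 267 in the p75NTR-/- libraries (log2 fold change 0.90, adjusted p = 0.934, limma), and the log2 fold change was 0.15 without WT replicate 1 and 1.64 without WT replicate 4. *Mdm4*, which inhibits p53 together with Mdm2, had 316 and 343 against 566, 463 and 407 (log2 fold change 0.52, adjusted p = 0.934, limma). The labels did not overlap for *Mdm4* and, in the other direction, for the kinase gene *Hipk2*, with 1124 and 865 against 609, 758 and 825 (log2 fold change -0.44). These were 11.1% of the 18 listed genes, beside 15.0% of all gene sums.

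Of the pro-death BCL2 family, 9 of 11 genes were listed, without *Bik* and *Hrk*, and 0 were called. *Bok*, a relative of *Bax*, had 60.8 and 103 normalized counts in the WT libraries and 130, 167 and 104 in the p75NTR-/- libraries, and *Bak1* 544 and 661 against 688, 697 and 722. In both genes every p75NTR-/- library was above both WT libraries, by 0.72 and 0.23 on the log2 scale (adjusted p = 0.934 for each, limma). These 2 of 9 genes were 22.2% of the list, beside 15.0% of all gene sums. For *Bok*, p75NTR-/- replicate 4 exceeded WT replicate 4 by less than 1 normalized count, and the difference was 0.34 without WT replicate 1 and 1.09 without WT replicate 4. *Bcl2l11*, which encodes the BH3-only protein Bim, had 147 and 48.9 against 41.6, 76.9 and 81.3. The pro-survival list added *Bcl2l2*, with a log2 fold change of 0.05, and 0 of its 4 listed genes were called.

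Of 14 caspase and apoptosome genes, 13 were listed, without *Cycs*, and 0 were called, with a median log2 fold change of -0.01. *Casp6*, an executioner caspase gene, had 515 and 401 normalized counts in the WT libraries and 213, 279 and 393 in the p75NTR-/- libraries, without overlap (log2 fold change -0.67, adjusted p = 0.934, limma). *Parp1*, a DNA repair enzyme gene whose protein caspases cleave, was without overlap in the other direction, with 2102 and 2723 against 3071, 3317 and 2764 (log2 fold change 0.35). Both together were 15.4% of the listed genes, close to the 15.0% of all gene sums. *Casp1*, which acts in inflammasomes, had 31.4 and 109 against 45.5, 15.6 and 116, high in both libraries numbered 4.

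Among inhibitors of apoptosis and their antagonists, 8 of 12 were listed and 0 called. *Birc5*, the gene of survivin, which also acts in mitosis, had a log2 fold change of 0.52, and *Htra2*, a mitochondrial protease gene, of 0.30 (adjusted p = 0.934 for each, limma). *Endog*, a mitochondrial nuclease gene, was without overlap, with 156 and 170 against 124, 144 and 149 (log2 fold change -0.23). Of 13 death receptors and adaptors, all were listed and 0 called. *Ngfr* was the only gene of this list at an unadjusted p under 0.05, with 0.0176 and an adjusted p of 0.934 (limma), against its label. *Cflar*, an inhibitor of caspase-8, had 287 and 315 normalized counts in the WT libraries and 187, 181 and 338 in the p75NTR-/- libraries. Of 15 symbols of p75NTR and its signal partners, not all of them partners in death signalling, 14 were listed, *Ngfr* included. The other symbol, *Ngfrap1*, is an earlier name of *Bex3*, which was listed. *Bex3* had 1120 and 1292 normalized counts in the WT libraries and 1094, 1249 and 1225 in the p75NTR-/- libraries. Of the 14, 0 were called, with a median log2 fold change of -0.03. *Lingo1*, a co-receptor gene, had 1738 and 755 normalized counts in the WT libraries and 573, 901 and 749 in the p75NTR-/- libraries, a log2 fold change of -0.65 (adjusted p = 0.934, limma) that was -0.05 without WT replicate 1. *Zfp369*, a zinc finger gene of this list, was without overlap, with 412 and 298 against 222, 258 and 295 (log2 fold change -0.45).

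**Figure D5:**
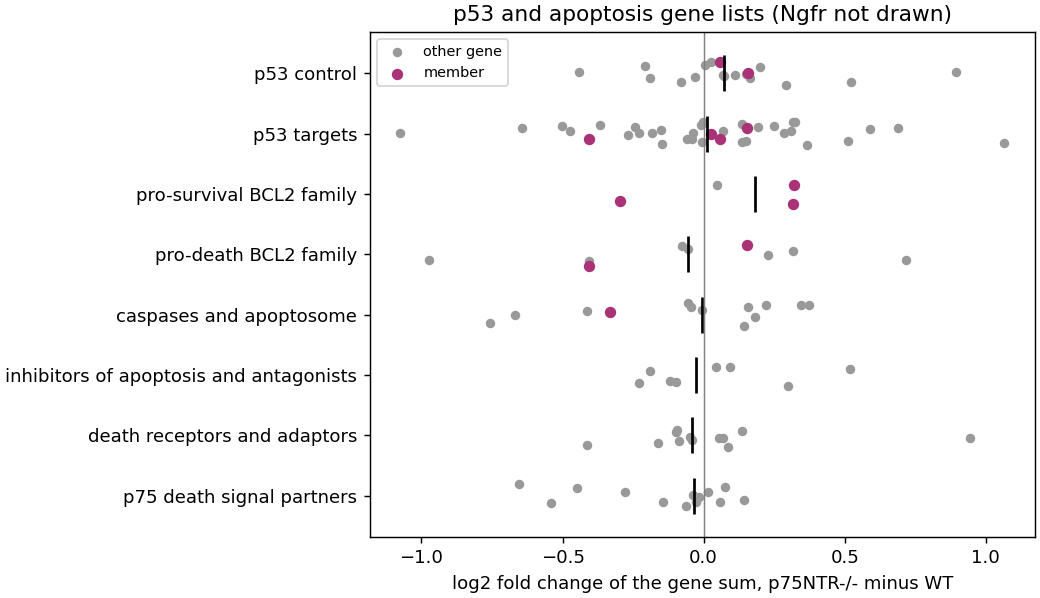
Log2 fold change of the gene sums between the labels (horizontal axis, p75NTR-/- minus WT) for 8 lists of p53 and apoptosis genes, 1 point per gene with the 9 described genes in color and the list median, *Ngfr* included, as a vertical bar. *Ngfr*, at 4.89, is not drawn. The medians lie between -0.05 and 0.18, beside 0.00 for all gene sums.

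The genes whose pattern over the 5 libraries was most like that of *Trp53* and its targets were found by the root mean square difference of log2 profiles, each centred on its own mean, among 10785 other genes with a mean of at least 50. For *Mdm2* they were *Zfp930*, *Rsad1* and *Lgals1*, at 0.03, 0.05 and 0.05, and 29 genes were within 0.1. For *Bbc3* they were *Dnaic2*, *Zscan2* and *Bcl6* at 0.11, 0.13 and 0.15, and 0 genes were within 0.1. The profiles of *Trp53*, *Ccng1* and *Bax* were common, with 511, 516 and 964 genes within 0.1. Nearest were *Pgp*, *Hars* and *Gatad2a* for *Trp53*, *Uqcc1*, *Tent4b* and *Vps33b* for *Ccng1*, and *Bccip*, *Ccdc77* and *Topors* for *Bax*, each at 0.03 or less.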

How the data were processed

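RNA-Seq was analysed for 5 NSPC libraries, 2 labelled WT and 3 labelled p75NTR-/-. The authors made stranded poly(A) libraries from 500 ng RNA, quantified reads by Salmon 0.10.2 against Ensembl transcripts (GRCm38.p6) and normalized them with DESeq2 1.22.0 in R 3.6.1. The deposited signal is the count divided by the size factor, plus 0.5, and the deposited TPM is a second signal. The authors' baseMean, a deposited score, reaches down to 9.34 and was not used, nor were the authors' deposited log2 fold change and p-value columns. The number of columns of per-sample values left unused was 0.

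After 303 repeated lines were dropped, 22227 transcripts remained, of which 99.9% matched GENCODE M21 (GRCm38). The offset of 0.5 was subtracted and transcripts were summed per symbol. In each library 100% of values up to 1000 counts were whole multiples of one step within 0.1 of a step. Depth was read from these steps, and the count behind each value limits its precision. A count model was not used. limma 3.58.1 (lmFit, eBayes) in R 4.3.3 compared log2(normalized count + 1) over all features without a filter, with Benjamini-Hochberg adjustment. It was also run on simulated data, with changed features of a mean of at least 50. There it called 7 of 50 gene sums changed 2-fold and 46 of 50 changed 4-fold. For transcripts it called 0 of 50 and 16 of 50. Among unchanged features it called 1 gene sum and 0 transcripts. The simulated libraries were independent, and each feature had the median spread of features with a similar mean. Likeness between libraries was not simulated, and these counts do not carry over to genes that vary more, such as *Bbc3*. Exact permutation tests were used for single ratios and shares. pandas 2.3.3, numpy 2.4.6, scipy 1.17.1 and matplotlib 3.10.9 were used in Python 3.11.15. The members and lists were chosen with earlier results of these data known. Named genes are the 9 members, *Ngfr*, the 2 genes of each list with the largest difference at a mean of at least 50, and the 3 nearest profiles. Genes of the lists without overlap, *Cdkn1a* and *Bcl2l2* were added after their values were seen. Alternatives were pseudocounts of 0.5 and 5, a filter on the mean, the replicate number as a block, omission of libraries and, chosen after seeing the data, a mean-variance trend, quantile normalization and TPM.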

Additional observations from a re-analysis of the deposited data

How the results depend on the processing

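The count of called genes among the 9 (0) and of called transcripts among their 15 (0) was the same under every alternative run. Over all gene sums the call of 1 gene went to 0 when the replicate number entered the fit as a block, without both libraries numbered 4 and with TPM, and ranged from 0 to 1 when each library was left out (0 without WT replicate 1 or p75NTR-/- replicate 2). Over all transcripts the 3 calls went to 0 with a pseudocount of 5, with the replicate block, without both libraries numbered 4, with a mean-variance trend, with TPM and with any 1 library left out, and to 31 without the minimum of the mean. At an unadjusted p under 0.05 (limma), 128 to 1370 gene sums and 397 to 1784 transcripts were found under the settings that kept both WT libraries. The 397 were among 14857 transcripts with a mean of at least 50. Under the same settings 0 of the 9 genes were found. Of the 15 transcripts, 1 was found with the replicate block, with TPM and without any 1 p75NTR-/- library. The adjusted p of Mdm2-202 was 0.147 (limma) without p75NTR-/- replicate 1. For the 9 genes, the lowest adjusted p under any setting was 0.165 (*Bcl2*, without both libraries numbered 4). *Bcl2* has no value when features with a mean under 50 are left out before the fit.

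When each library was left out, the log2 fold change ranged from -0.082 to 0.39 for *Trp53*, -0.44 to 0.56 for *Mdm2*, -0.19 to 0.24 for *Ccng1*, -0.083 to 0.72 for *Bcl2l1* and -0.046 to 0.68 for *Mcl1*, with the lowest value without WT replicate 1 and the highest without WT replicate 4. It ranged from -0.80 to 0.21 for *Bcl2* and -0.84 to 0.18 for *Casp9*, lowest without WT replicate 4 and highest without WT replicate 1, and from -0.77 (without p75NTR-/- replicate 4) to 0.12 (without p75NTR-/- replicate 1) for *Bbc3*. *Mdm2* was also -0.10 and *Ccng1* -0.02 without p75NTR-/- replicate 4. The ranges were -0.036 to 0.72 for Bcl2l1-201, -0.87 to 0.61 for Bcl2l1-208, -0.041 to 0.68 for Mcl1-201, -0.35 to 0.64 for Mdm2-201, -0.16 to 0.34 for Trp53-203, -1.19 to 0.38 for *Bcl2l11*, -1.30 to 0.47 for *Casp1* and -0.052 to 0.65 for *Htra2*. Without both libraries numbered 4, Bcl2l1-208 was 0.68. The causes were not tested.

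The replicate numbers were not treated as pairs, since the labels do not say what they share and only 2 numbers occur under both labels. Deviations from the label means correlated over genes by 0.26 for number 1 and 0.48 for number 4, but with 2 WT libraries these deviations are mirror images of each other, so the correlations do not decide the question. With the block, Bcl2l1-208 was 0.041 and *Casp1* 0.31. The alternatives with edgeR and DESeq2, and with their normalization factors, were not run, because the deposited values carry an offset and were handled as normalized signal, and the counts recovered from their steps were used only for depth and for the limit of 3 counts. With 2 against 3 libraries, a 1.5-fold difference lay inside the interval of most of the 9 genes.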
